A study of Mus musculus with 27 samples.

Results

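Of 89375 tiles of 1 kb on the mouse autosomes with a methylation level in all 6 libraries, 641 (0.717%) were higher in every SHMT2 library than in every vector library. The sample titles name the methylation assay as ERRBS, enhanced reduced representation bisulfite sequencing, in which bisulfite treatment turns unmethylated cytosines into bases read as T and leaves methylated ones as C, at CpG-rich parts of the genome. The protocol in the labels gives bisulfite treatment, PCR and direct sequencing and none of the other steps of ERRBS, so how the libraries were made is only partly known. A tile counted as measured with 3 or more CpG cytosines covered by 10 or more calls in all 6 libraries, and its level was the percent of methylated calls over all calls at those cytosines. A tile was chosen when all 3 SHMT2 levels lay above all 3 vector levels and the group means stood 10 percentage points or more apart. The methylation levels therefore chose the tiles, and are given here as a description with no test. The same rule in the other direction found 931 tiles (1.04%) lower in every SHMT2 library, so the higher tiles were the smaller of both sets.

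The SHMT2 group held B220+ cells of VavP-Bcl2 origin that carried the retroviral vector MSCV-SHMT2, and the vector group held the same kind of cells with the empty vector. VavP-Bcl2 is a transgene that drives the anti-apoptotic gene Bcl2 from Vav regulatory sequences, which are active across blood cells, and both groups carried it. As labelled for RNA-seq and ChIP-seq, haematopoietic stem cells of E13.5 fetal livers were infected, injected into irradiated wild-type mice, and B220+ cells were later isolated from the spleens of the mice with tumours. B220 is a form of CD45 carried by B cells. Irradiated recipients can keep some blood cells of their own, so not every B220+ cell need carry the vector. The labels of the ERRBS libraries give no age, embryo or spleen. ERRBS and RNA-seq were each made from 3 SHMT2 and 3 vector libraries, H3K4me3 ChIP-seq from 3 SHMT2 and 2 vector libraries, and H3K4me1 ChIP-seq from 2 of each. The labels do not tell whether each library came from its own animal, so the p-values of the RNA comparison cover the spread among these libraries only, part of which may be technical.

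SHMT2 is the mitochondrial serine hydroxymethyltransferase, which turns serine into glycine and a folate-bound 1-carbon unit. 1-carbon units feed the methionine cycle, whose product S-adenosylmethionine donates the methyl group that DNA methyltransferases place on cytosines of CpG pairs. Most CpGs of mammalian DNA are methylated, CpG islands at gene starts are mostly free of methylation, and sites of intermediate level are often enhancers or vary between cells. H3K4me3 marks the starts of active genes, and H3K4me1 marks enhancers and the edges of active promoters.

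RefSeq start sites of Apoe, Bcl6, Abl1 and Tead2 lay in such tiles, and a promoter window of each gene is shown. Whether these are the start sites from which the genes are mainly transcribed in these cells was not tested. Of the 8 windows of protein-coding genes that lay wholly in a chosen tile with 10 or more cytosines measured in all 6 libraries, from 7 genes, they are those of the 4 genes with the largest tile differences, for Apoe the one with more cytosines. Each window runs from 250 bases before to 50 bases after a start site in RefSeq (GRCm38.p6, the build also called mm10) and is written 5′ to 3′ on the strand of the gene. Capitals mark CpG pairs in which at least 1 cytosine was measured in all 6 libraries.
Apoe, chr7:19698572-19698871, minus strand: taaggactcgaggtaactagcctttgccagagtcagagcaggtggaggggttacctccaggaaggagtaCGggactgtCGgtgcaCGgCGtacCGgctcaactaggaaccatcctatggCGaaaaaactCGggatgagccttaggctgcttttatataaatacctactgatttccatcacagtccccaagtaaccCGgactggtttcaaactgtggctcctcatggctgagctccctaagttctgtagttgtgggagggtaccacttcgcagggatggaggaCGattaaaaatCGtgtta
Bcl6, chr16:23981234-23981533, minus strand: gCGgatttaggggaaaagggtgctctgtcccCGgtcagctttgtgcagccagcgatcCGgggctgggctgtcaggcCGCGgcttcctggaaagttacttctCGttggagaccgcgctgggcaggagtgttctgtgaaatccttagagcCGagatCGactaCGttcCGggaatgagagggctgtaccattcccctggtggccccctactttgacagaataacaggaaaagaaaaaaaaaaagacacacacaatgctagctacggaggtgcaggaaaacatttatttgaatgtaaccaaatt
Abl1, chr2:31759689-31759988, plus strand: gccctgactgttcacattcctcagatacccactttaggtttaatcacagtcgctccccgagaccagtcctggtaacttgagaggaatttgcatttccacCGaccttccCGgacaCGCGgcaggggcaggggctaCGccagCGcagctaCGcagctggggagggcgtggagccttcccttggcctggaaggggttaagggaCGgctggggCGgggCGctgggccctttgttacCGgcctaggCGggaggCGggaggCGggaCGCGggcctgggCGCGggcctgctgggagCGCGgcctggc
Tead2, chr7:45215542-45215841, plus strand: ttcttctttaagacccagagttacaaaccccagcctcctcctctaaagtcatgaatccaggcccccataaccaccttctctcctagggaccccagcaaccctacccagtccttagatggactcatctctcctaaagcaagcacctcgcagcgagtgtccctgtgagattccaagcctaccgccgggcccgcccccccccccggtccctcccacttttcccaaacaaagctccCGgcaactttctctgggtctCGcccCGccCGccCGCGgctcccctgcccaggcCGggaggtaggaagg

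Over the cytosines of the Apoe window, which precedes the gene of a lipid-carrying apolipoprotein, methylation was 51.1, 48.7 and 30.1% in the SHMT2 libraries, against 31.3, 13.4 and 16.9% in the vector libraries. SHMT2 replicate 3 was below vector replicate 1 there, so the groups overlapped in the window while they did not in the tile of 24 cytosines (59.9, 51.1 and 40.0% in SHMT2, against 36.4, 16.7 and 17.4% in vector). The window of Bcl6, the transcriptional repressor that germinal centre B cells depend on, stood at 45.7, 67.0 and 32.2% in SHMT2, against 30.3, 16.7 and 23.0% in vector. That window held 14 CpGs, of which 10 were measured, and every SHMT2 value lay above every vector value with 1.91 points between SHMT2 replicate 3 and vector replicate 1. The window of Abl1, a tyrosine kinase, was lowly methylated at 25.4, 31.3 and 10.3% in SHMT2, against 3.63, 7.28 and 10.1% in vector. SHMT2 replicate 3 was only 0.196 points above vector replicate 3 there, so the groups were barely apart. The Tead2 window, at the start of a TEAD transcription factor that binds the co-activators YAP and TAZ, stood at 60.3, 53.8 and 49.6% in SHMT2, against 34.0, 38.1 and 28.4% in vector. Its 3 SHMT2 values were the closest together of these 4 windows, and the lowest of them was 11.5 points above the highest vector value. Of the 4 windows not shown, the second of Apoe (68.3, 58.4 and 49.4% in SHMT2, against 47.3, 21.2 and 22.5% in vector), that of Scin (17.6, 32.2 and 24.7% in SHMT2, against 12.2, 11.5 and 8.54% in vector) and that of Duoxa1 (29.4, 49.8 and 29.5% in SHMT2, against 24.1, 19.5 and 28.1% in vector) had no overlap between the groups. The Cnksr1 window had overlap, at 31.1, 27.4 and 38.0% in SHMT2, against 28.4, 29.3 and 14.6% in vector. The GC box, searched as GGGCGG on both strands, occurred 3 times in the Tead2 window, 1 time in the Abl1 window and not in the letters of the shown Apoe and Bcl6 windows, and 35.7% of the 32851 promoter windows held it.

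In all, 41 promoter windows of 38 genes lay wholly within the 641 tiles, 27 of those genes being protein-coding, and 26 of the windows held a measured cytosine. These 41 windows had a median of 11 CpGs (quartiles 7 and 13), against 7 (quartiles 3 and 20) in all promoter windows. Of the 41 windows, 34.1% held a GC box. All promoter windows were counted whether or not they lay in a measured tile. The CpG and GC box figures therefore do not set the chosen tiles apart from other measured tiles, which was not tested.

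Across the 641 tiles the median level was 55.3, 59.4 and 49.6% in SHMT2 replicates 1 to 3, against 40.4, 37.6 and 34.2% in vector replicates 1 to 3. Over all tiles measured the medians were 76.9, 69.1 and 80.2% in SHMT2, against 78.7, 79.7 and 76.7% in vector. The chosen tiles were thus less methylated than the typical tile in each of the 6 libraries. A tile near full methylation in vector could not meet the rule, so this follows in part from the choice. Their mean over the 6 libraries was between 20 and 80% in 526 tiles (82.1%), under 20% in 73 and over 80% in 42. The tiles lower in every SHMT2 library shared this, with 727 of 931 (78.1%) between 20 and 80%, while 23353 of all 89375 tiles were. The difference between group means had a median of 14.6 points and a largest value of 48.3 points. It reached 15 points in 301 tiles, 20 points in 84 and 25 points in 26.

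**Figure D1:**
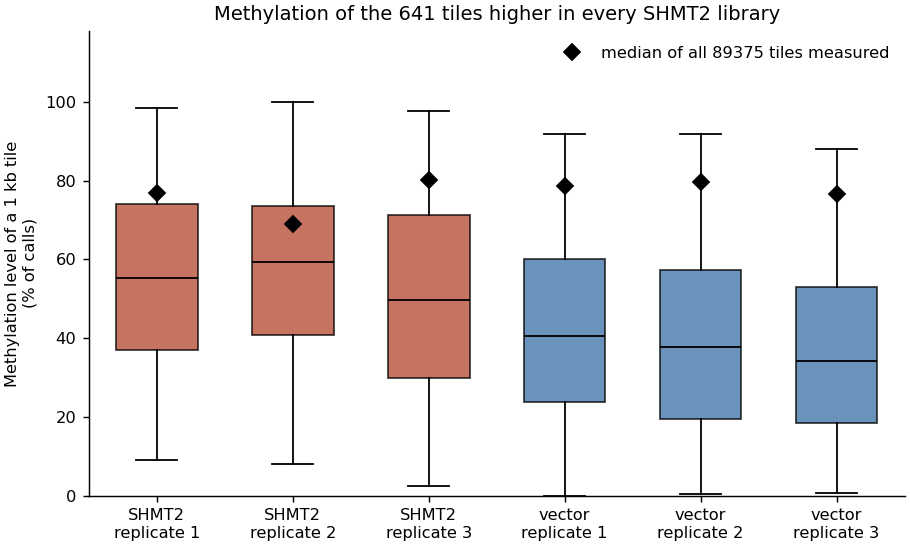
Methylation level (percent of calls, vertical axis) of the 641 tiles in each of the 6 ERRBS libraries, SHMT2 in red and vector in blue. Boxes span the quartiles with the median as a line, whiskers span all tiles, and diamonds give the median of all 89375 tiles. The medians of the chosen tiles lie between 49.6 and 59.4% in SHMT2 and between 34.2 and 40.4% in vector, and the diamonds lie above all 6 of them.

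The 3 SHMT2 libraries did not contribute alike. SHMT2 replicate 2 was the highest library in 330 of the 641 tiles, replicate 1 in 223 and replicate 3 in 88. Among the vector libraries, replicate 3 was the lowest in 315 tiles, replicate 2 in 227 and replicate 1 in 99. SHMT2 replicate 2 stood apart over the whole data, being the lowest library of the 6 in 39.6% of all tiles, and in 739 of the 931 tiles lower in SHMT2 (79.4%). With SHMT2 replicate 2 left out of the means, 487 of the 641 tiles (76.0%) still differed by 10 points or more, with a median difference of 13.2 points. With the other libraries left out in turn, from 540 (without vector replicate 3) to 618 (without SHMT2 replicate 3) did. Applied anew to the 5 libraries other than SHMT2 replicate 2, the rule found 1038 higher and 598 lower tiles, so the direction with more tiles turned round. With fewer libraries the rule is easier to meet.

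The gap between the lowest SHMT2 and the highest vector library was narrow in many tiles. Its median was 3.36 points, it was under 1 point in 112 tiles, and it reached 10 points in 50. Tiles in which the groups did not overlap, whatever the difference of means, made up 3.89% of all tiles with SHMT2 above and 4.91% with SHMT2 below. At the edge of the rule, 2 of the last 3 tiles inside, at chr5:4499001-4500000 and in Ptprs, differed by 10.05 and 10.03 points. The first 3 outside, in Tll2, in Slc38a6 and at chr6:51193001-51194000, differed by 9.99, 9.97 and 9.96 points.

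A chosen tile held a median of 5 measured cytosines (range 3 to 75), and 252 tiles (39.3%) held only 3 or 4. The library with the fewest calls in a tile had a median of 235 calls, and 122 tiles had fewer than 100 calls in some library. Calls are reads after amplification and not independent molecules, so the binomial intervals given here cover counting error only. Inside the tiles, 5116 of 5345 cytosines (95.7%) were higher on average in SHMT2, and 2097 (39.2%) separated the groups on their own. All measured cytosines were higher in SHMT2 in 480 tiles (74.9%), and in 41 tiles no single cytosine separated the groups. This agreement of neighbouring cytosines was not independent of the choice, since the same calls made up the tile level.

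The widest gap was in a tile shared by Phospho1, a phosphatase of bone mineralisation, and Abi3, an adaptor of the actin-regulating WAVE complex (chr11:95830001-95831000). It stood at 61.3, 72.4 and 70.0% in SHMT2, against 35.8, 28.1 and 20.3% in vector, and all 10 of its cytosines separated the groups. It carried H3K4me3 peaks in all 5 libraries and H3K4me1 peaks in all 4. Abi3 was expressed at 198, 227 and 221 TPM in SHMT2 cells, against 243, 173 and 186 TPM in vector cells, and these groups overlapped.

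The largest difference of means, 48.3 points, was in a tile outside genes on chromosome 5 (chr5:74126001-74127000, 57590 bases from Usp46, a deubiquitinase). Its 6 cytosines stood at 72.3, 82.6 and 66.3% in SHMT2, against 43.4, 18.9 and 14.0% in vector, and each separated the groups. A tile at the noncoding RNA gene Rab10os (chr12:3235001-3236000) stood at 33.8, 45.3 and 32.8% in SHMT2, against 6.25, 4.45 and 9.51% in vector. Both tiles lay under H3K4me3 peaks in all 5 libraries, and the vector levels of the Rab10os tile were near those of an unmethylated start site, which the tile holds. A tile in Zbtb8b, a zinc finger gene, stood at 61.5, 65.7 and 54.1% in SHMT2, against 33.6, 28.7 and 28.5% in vector, and the tile next to it was also chosen.

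The other tiles of the 10 widest gaps were in Ctnna3 with Lrrtm3, in Otulinl, in the predicted gene Gm35117, at chr10:43667001-43668000, and at 2 places outside genes on chromosome 5. Ctnna3 encodes a catenin of cell junctions, and Lrrtm3, a synaptic protein, lies inside it. Their tile stood at 48.3, 71.6 and 46.9% in SHMT2, against 30.2, 21.5 and 18.5% in vector, and both genes were listed at 0 TPM in all 6 libraries. The Otulinl tile stood at 63.2, 67.1 and 72.6% in SHMT2, against 47.7, 28.4 and 40.1% in vector, from 85 to 171 calls. With 85 calls the half-width of the 95% Wilson interval was 9.80 points, the widest among the 10. The tile at chr10:43667001-43668000, whose nearest protein-coding gene is Cd24a (82736 bases), encoding a surface glycoprotein of B cell precursors, stood at 87.2, 80.3 and 76.2% in SHMT2, against 47.7, 57.8 and 55.2% in vector. It had H3K4me3 peaks in all 5 libraries and H3K4me1 peaks in all 4.

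**Figure D2:**
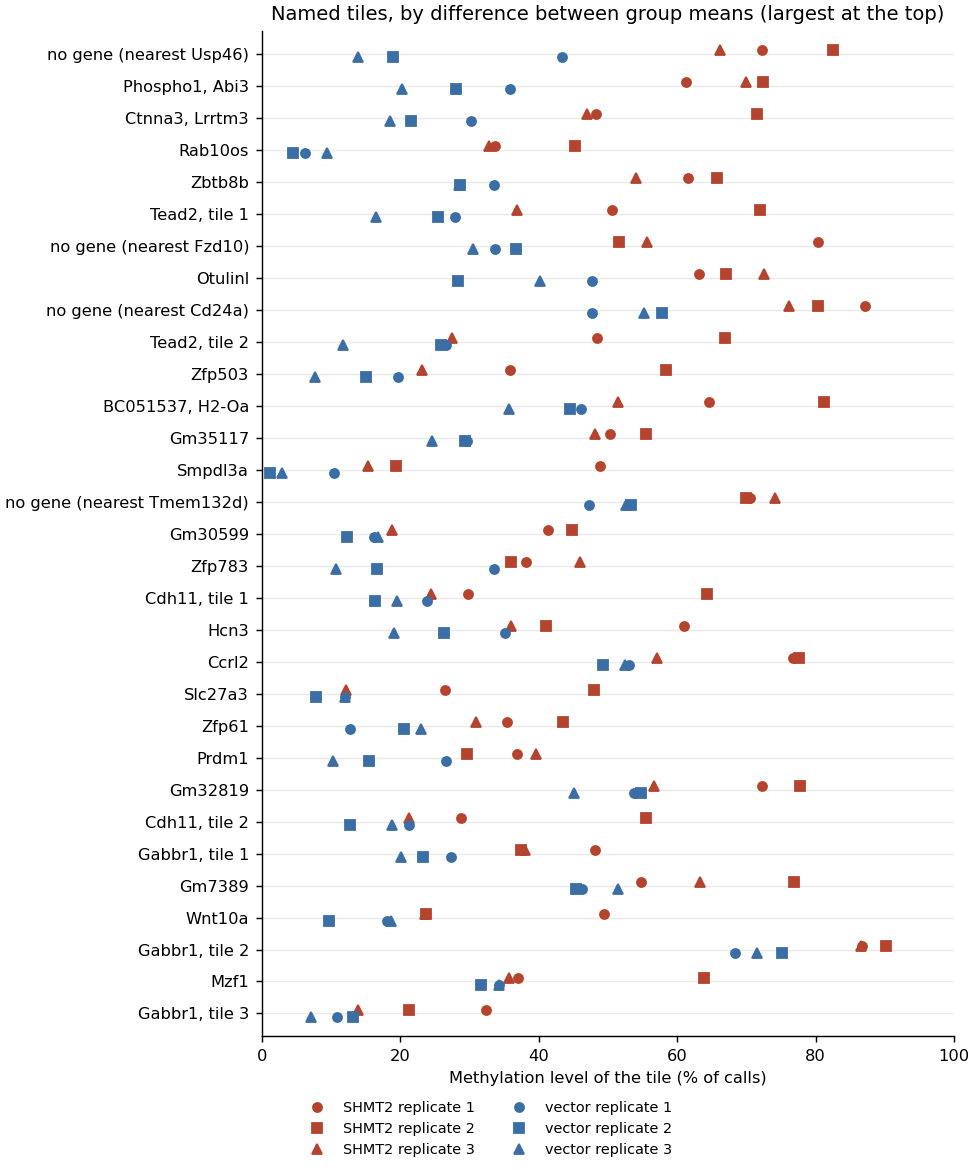
Methylation level (percent of calls, horizontal axis) of the named tiles in each library, SHMT2 in red and vector in blue, with 1 marker shape per replicate number. Tiles are named by the gene they overlap or by the nearest protein-coding gene and run from the largest to the smallest difference of means, from 48.3 points at the top to 12.2 points at the bottom. SHMT2 replicate 2 (red squares) lies far to the right of the other SHMT2 libraries in Tead2, Cdh11, Zfp503, Slc27a3 and Mzf1, and SHMT2 replicate 1 (red circles) in Smpdl3a, Hcn3 and Wnt10a.

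Touching tiles rarely met the rule together. The 641 tiles formed 14 runs of more than 1 tile, which held 29 tiles. The longest had 3 tiles in Gabbr1, a subunit of the GABA-B receptor (chr17:37049001-37052000, mean difference 15.3 points). Its middle tile stood at 48.2, 37.4 and 38.0% in SHMT2, against 27.3, 23.3 and 20.1% in vector, and its last tile was highly methylated at 86.7, 90.1 and 86.6% in SHMT2, against 68.3, 75.2 and 71.5% in vector. The H3K4me3 peaks of all 5 libraries reached the middle tile and none reached the last, so the run crossed the edge of a marked region. Gabbr1 stood at 31.1, 27.8 and 25.2 TPM in SHMT2, against 42.6, 35.8 and 31.9 TPM in vector, a log2 difference of -0.38 (SE 0.14, limma adjusted p = 0.258).

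The run of 2 tiles at the start of Tead2 (chr7:45215001-45217000) had a mean difference of 28.0 points. Its first tile stood at 50.7, 72.0 and 36.8% in SHMT2, against 27.9, 25.5 and 16.5% in vector, while in the second SHMT2 replicate 3 (27.4%) was only 0.734 points above the highest vector library. Tead2 itself was lowly expressed, at 0.515, 0.515 and 0.583 TPM in SHMT2, against 0.418, 0.231 and 0.122 TPM in vector, under the mean of 1 TPM needed for the test. The 2 tiles in Cdh11, a cadherin, rested on SHMT2 replicate 2: the second stood at 28.8, 55.6 and 21.3% in SHMT2, against 21.2, 12.8 and 18.9% in vector, with a gap of 0.0946 points. The other runs of 2 tiles lay in Ltbp3, Zbtb8b, Smpdl3a, Tjp3, Tmie, Ebf1, Nkx2-2, Cotl1 and Anks1, and 2 lay outside genes.

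The measured tiles that touched a chosen one and were not chosen themselves numbered 258, and 186 of them (72.1%) were higher on average in SHMT2, with a median difference of 2.67 points. Over all tiles 44.5% were higher, with a median difference of -0.10 points. Beside the tiles lower in every SHMT2 library, 36.4% of 198 touching tiles were higher. From 2 kb outwards the median difference around the chosen tiles was between -0.09 and 1.15 points. Touching tiles can share reads and cells with the chosen one, and a bulk level does not tell how many cells carry the methylation.

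**Figure D3:**
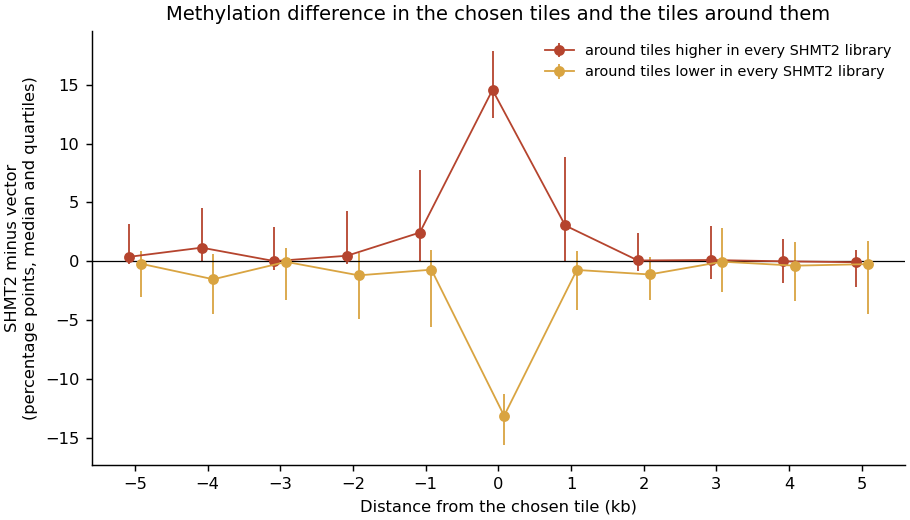
Methylation difference, SHMT2 minus vector, in percentage points (vertical axis) in the chosen tiles at 0 and in the measured tiles 1 to 5 kb away that were not chosen (horizontal axis), around the higher (red) and the lower (yellow) tiles. Points are medians and bars span the quartiles. The median is 14.6 points at the higher tiles, 2.43 and 3.03 points in the touching tiles, and 1.15 points or less beyond them.

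The histone peak lists were made from other libraries and were not used to choose the tiles. An H3K4me3 peak of at least 1 library overlapped 139 of the 641 tiles (21.7%, 95% Wilson interval 18.7 to 25.04%), against 7.52% of the tiles lower in SHMT2, 9.90% of tiles with a mean level of 20 to 80% and 26.1% of all tiles. An H3K4me1 peak overlapped 239 (37.3%, interval 33.6 to 41.1%), against 10.7% of lower tiles, 19.1% of tiles of intermediate level and 31.1% of all tiles. H3K4me1 without H3K4me3 covered 115 tiles (17.9%), against 4.30% of lower tiles, 10.1% of tiles of intermediate level and 7.34% of all tiles. Neither mark reached 387 tiles (60.4%), against 88.2% of the lower tiles. These shares are descriptions with no test of enrichment. Their intervals take tiles as independent and leave out the spread among libraries. Counting only peaks with a −log10 q of at least 5 lowered the H3K4me1 share to 19.97% of the chosen tiles and 20.04% of all tiles, so the lead over all tiles was lost, while the lower tiles were at 6.77% and tiles of intermediate level at 10.9%. A peak in every H3K4me1 library was found at 17.6% of the chosen tiles, 5.16% of lower tiles and 15.1% of all tiles, and a peak in every H3K4me3 library at 11.2%, 4.30% and 22.0%. With the rule applied without SHMT2 replicate 2, 21.1% of the tiles overlapped H3K4me3 and 35.2% overlapped H3K4me1.

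Marked tiles were less methylated than unmarked ones. Tiles with H3K4me3 had medians of 39.5, 40.2 and 31.0% in the SHMT2 libraries, against 24.1, 19.2 and 18.7% in the vector libraries. Tiles with H3K4me1 and no H3K4me3 had medians of 54.5, 61.0 and 47.6% in SHMT2, against 37.3, 37.2 and 35.0% in vector. Tiles with neither mark had medians of 62.5, 65.2 and 60.0% in SHMT2, against 48.2, 45.5 and 40.0% in vector. The median difference of means was 14.8, 14.5 and 14.5 points in those 3 classes. The rule set a lower limit on this difference in every tile, so the likeness of these medians follows in part from the choice.

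Library by library, H3K4me3 peaks overlapped 18.9, 18.6 and 15.1% of the chosen tiles in SHMT2 replicates 4 to 6, against 12.9 and 15.6% in vector replicates 4 and 6. The H3K4me3 lists of SHMT2 were longer over the whole genome (38249, 36633 and 34458 peaks, against 33806 and 33313 in vector). H3K4me1 peaks overlapped 34.0 and 32.6% in SHMT2 replicates 4 and 5, against 22.5 and 20.4% in vector replicates 4 and 5. Over all tiles the H3K4me1 shares were 28.6 and 28.4% in SHMT2, against 20.2 and 17.4% in vector, and the SHMT2 lists were longer (48993 and 52056 peaks, against 37274 and 33119). A tile had an H3K4me1 peak in both SHMT2 libraries and in neither vector library in 34 cases (5.30%), where 4.91% of all tiles did, a share near the background. No chosen tile had the reverse pattern, which 0.0168% of all tiles had. For H3K4me3 the SHMT2-only pattern was seen in 5 chosen tiles (0.780%), where 0.279% of all tiles had it, and the reverse in 1, where 0.0168% of all tiles had it. The tiles lower in every SHMT2 library also held 5 with the SHMT2-only pattern (0.537%) and 1 with the reverse, so these counts do not set the higher tiles apart. The 5 higher tiles lay at the start of Scin, an actin-severing protein, by Cdkn2b, in S1pr5, a sphingosine-phosphate receptor, and outside genes on chromosomes 5 and 18. They were picked on both counts, so that peak presence and methylation were higher in SHMT2 cells follows from the choice. The Scin tile, for example, stood at 17.0, 27.2 and 21.7% in SHMT2, against 10.3, 9.57 and 7.81% in vector.

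**Figure D4:**
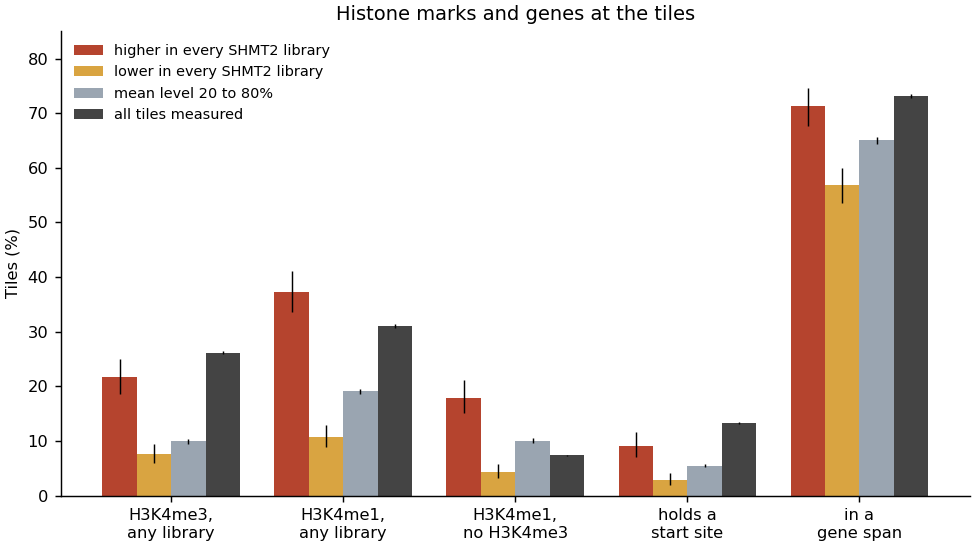
Percent of tiles (vertical axis) that overlap a peak of each mark, a RefSeq start site or a gene span, for the tiles higher in every SHMT2 library, the tiles lower in every SHMT2 library, tiles with a mean level of 20 to 80% and all tiles measured. Bars start at 0 and error bars are 95% Wilson intervals, which take tiles as independent and leave out the spread among libraries. The higher tiles had H3K4me1 in 37.3% and H3K4me1 without H3K4me3 in 17.9%, above each of the other 3 sets, with all deposited peaks counted.

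In position the chosen tiles lay between the lower tiles and the whole. A gene span of RefSeq overlapped 457 tiles (71.3%), against 56.8% of lower tiles and 73.1% of all tiles. Outside chromosome 18, for which no start sites were used here, 56 of 619 tiles (9.05%) held a start site, against 2.76% of lower tiles, 5.43% of tiles of intermediate level and 13.3% of all tiles. The table held a start site for 81.7% of protein-coding genes, so these shares are lower limits. In measured CpG content, 24.3% of the chosen tiles had 10 or more cytosines, against 2.90% of lower tiles and 28.2% of all tiles. The share of tiles chosen ranged from 0.376% on chromosome 16 to 1.07% on chromosome 19.

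Tiles with most cytosines give the most precise levels. The tile at the start of Slc27a3, an acyl-CoA synthetase of the fatty acid transport family, held 75 cytosines and stood at 26.5, 47.9 and 12.12% in SHMT2, against 12.02, 7.83 and 12.09% in vector. SHMT2 replicate 3 and vector replicate 3 differed there by 0.0280 points, far within the counting interval of either, whose half-width was at most 1.46 points, so the groups are not separated beyond counting error. The tile at the start of Zfp783, which the annotation used here does not list as protein-coding, held 64 cytosines. It stood at 38.2, 36.0 and 46.0% in SHMT2, against 33.6, 16.6 and 10.7% in vector. The tile in Zfp503, a transcriptional repressor, held 57 cytosines and stood at 35.9, 58.4 and 23.1% in SHMT2, against 19.7, 15.1 and 7.76% in vector. In Mzf1, a myeloid zinc finger gene, SHMT2 replicate 2 stood at 63.9%, while SHMT2 replicates 1 and 3 stood at 37.0 and 35.7%, close to the 34.3, 31.6 and 34.2% of the vector libraries. The tile in the predicted gene Gm7389 stood at 54.8, 76.9 and 63.3% in SHMT2, against 46.2, 45.4 and 51.5% in vector.

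Tiles under H3K4me3 near an end of an expressed protein-coding gene included 10 named by their difference. Phospho1 with Abi3, described above, was the first. The tile at H2-Oa, the alpha chain of H2-O, which restrains peptide loading of MHC class II in B cells, stood at 64.6, 81.2 and 51.5% in SHMT2, against 46.1, 44.5 and 35.7% in vector. H2-Oa was expressed at 509, 460 and 482 TPM in SHMT2, against 475, 338 and 470 TPM in vector, with overlap. The tile in Smpdl3a, a phosphodiesterase of the acid sphingomyelinase family, stood at 48.9, 19.4 and 15.3% in SHMT2, against 10.4, 1.18 and 3.00% in vector. Smpdl3a RNA stood at 56.3, 41.9 and 38.5 TPM in SHMT2, against 31.8, 48.5 and 58.1 TPM in vector, a log2 difference of 0.01 (SE 0.25, limma adjusted p = 0.993).

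The tile of Ccrl2, an atypical chemokine receptor that binds chemerin, stood at 76.8, 77.6 and 57.1% in SHMT2, against 53.0, 49.3 and 52.5% in vector. Ccrl2 RNA stood at 94.8, 44.9 and 57.9 TPM in SHMT2, against 100.02, 283 and 119 TPM in vector, all SHMT2 libraries below all vector libraries (log2 difference -1.25, SE 0.46, limma adjusted p = 0.259). The other tiles of this kind were in Gm30599, in the pacemaker channel gene Hcn3, in the zinc finger gene Zfp61, in Prdm1, in Gm32819 beside Colca2, and in Wnt10a, a Wnt ligand. Their differences of means ran from 16.8 points in Wnt10a to 19.9 points in Gm30599.

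A chosen tile in the span or within 1 kb of a start site was found for 1 of 30 B cell identity genes (3.33%). It was found for 2 of 17 germinal centre genes (11.8%) and 1 of 9 plasma cell genes (11.1%). Of all protein-coding autosomal genes 2.003% had one. These counts are small and were not tested. Among genes of the B lineage, the Prdm1 tile lay at an end of the annotated gene span (chr10:44528001-44529000). The nearest start site in the table was 69253 bases away, but the table held one for only 81.7% of protein-coding genes. Whether this end of the span is the start of Prdm1 was not tested. Prdm1 encodes BLIMP1, the repressor that drives plasma cell differentiation. The tile stood at 36.8, 29.6 and 39.6% in SHMT2, against 26.6, 15.5 and 10.4% in vector, under H3K4me3 and H3K4me1 peaks of all libraries. Prdm1 RNA stood at 46.2, 75.4 and 62.6 TPM in SHMT2, against 86.9, 85.5 and 100.1 TPM in vector, with no overlap (log2 difference -0.58, SE 0.19, limma adjusted p = 0.227).

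Ebf1, a transcription factor that specifies B cells, had 2 touching tiles at a start site, of which the first stood at 36.3, 18.9 and 18.6% in SHMT2, against 10.1, 7.84 and 11.7% in vector. Ebf1 RNA stood at 104, 106 and 110 TPM in SHMT2, against 132, 101.1 and 117 TPM in vector, with overlap. The Bcl6 tile held a start site listed for Bcl6, without an H3K4me3 peak and with H3K4me1 peaks in all 4 libraries. Whether the Bcl6 RNA starts mainly at this site was not tested. The tile stood at 47.0, 66.9 and 33.3% in SHMT2, against 30.4, 17.5 and 23.5% in vector. Bcl6 RNA stood at 245, 336 and 348 TPM in SHMT2, against 498, 143 and 256 TPM in vector, the vector libraries alone spanning more than the SHMT2 libraries. Mef2b, a transcription factor of germinal centre cells, had a tile at 71.8, 72.8 and 73.3% in SHMT2, against 64.5, 60.1 and 59.4% in vector, with RNA at 72.1, 98.4 and 88.2 TPM in SHMT2, against 106, 21.5 and 39.8 TPM in vector.

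Of all 20665 protein-coding autosomal genes, 414 (2.003%) had a chosen tile in the span or within 1 kb of a start site, and 2.62% of those with a measured tile there did. The 15 lists of pathways and cell types are set beside that share with no test and no matching for gene length or measured tiles. Over all 15 lists, 17 of 427 genes (3.98%) had one. Of 51 lymphoma tumour suppressors, 4 (7.84%) had one: Prdm1, Cdkn2b, Ephb2 and Ptprm. Cdkn2b encodes the cyclin-dependent kinase inhibitor p15, and its tile stood at 11.9, 14.97 and 16.5% in SHMT2, against 6.58, 4.00 and 2.61% in vector. Cdkn2b RNA stood at 2.17, 1.59 and 1.71 TPM in SHMT2, against 2.35, 1.14 and 3.09 TPM in vector. The tile of Ptprm, a receptor tyrosine phosphatase, stood at 68.0, 83.3 and 68.5% in SHMT2, against 64.7, 51.3 and 59.2% in vector, 262460 bases from a start site, and Ptprm RNA was at 1.04 TPM or below in every library. The tile of Ephb2, an ephrin receptor, stood at 32.3, 27.4 and 19.1% in SHMT2, against 16.4, 18.2 and 13.6% in vector.

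Of 31 genes of serine and 1-carbon metabolism, only Gnmt (3.23%) had a chosen tile, at its start. Gnmt encodes glycine N-methyltransferase, which consumes S-adenosylmethionine to methylate glycine. The tile stood at 81.2, 78.3 and 75.8% in SHMT2, against 63.4, 50.9 and 70.3% in vector, and Gnmt RNA at 1.20, 0.647 and 0.829 TPM in SHMT2, against 1.12, 1.97 and 1.59 TPM in vector. Of 26 germline genes, 3 (11.5%) had one: Dazl, a germ cell RNA-binding protein, Smc1b, a meiotic cohesin subunit, and Tdrd9, a helicase of the piRNA pathway. The Dazl tile of 43 cytosines stood at 48.9, 16.4 and 8.04% in SHMT2, against 6.28, 1.26 and 1.97% in vector, with Dazl RNA at 0.0980 TPM or below in every library. Of 66 developmental transcription factors, Nkx2-2, Pax1, Pax6, Pax9 and Tbx15 had one (7.58%), and their RNA was at 0.0823 TPM or below in every library. Of 38 imprinted genes, Trappc9 had one (2.63%), at 97.4, 98.1 and 97.2% in SHMT2, against 91.9, 82.1 and 83.3% in vector, on as few as 39 calls. No chosen tile was found at the 14 B cell progenitor, 19 erythroid, 25 myeloid or 22 T and NK cell genes. None was found at the 18 genes of DNA methylation machinery, 17 of H3K4 enzymes or 52 of Hox clusters.

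RNA was not used to choose the tiles, and it was compared over the 11117 genes averaging 1 TPM or more, the authors' unit of transcript abundance scaled to a common total, as log2(TPM + 1), on which fold changes of low genes are understated. The mouse gene Shmt2 stood at 244, 345 and 259 TPM in SHMT2, against 174, 223 and 157 TPM in vector. Its log2 difference was 0.61 (SE 0.19, exact permutation p = 0.1, the smallest that 3 against 3 allow, and limma adjusted p = 0.216). Whether these TPM include RNA of the inserted SHMT2 was not tested. limma called 0 genes at an adjusted p under 0.05 (0% of those tested), with 1858 (16.7%) at an unadjusted p under 0.05. The 10 B cell markers summed to 9328, 9126 and 9049 TPM in SHMT2, against 9229, 7327 and 6644 TPM in vector. Erythroid markers summed to 286, 160 and 284 TPM in SHMT2, against 164, 5564 and 1169 TPM in vector, and myeloid markers to 357, 246 and 229 TPM in SHMT2, against 164, 894 and 720 TPM in vector. All 10 erythroid and 10 of 11 myeloid markers found had a higher mean in vector cells, and none of either list was at 0 in all libraries. Their part in the RNA results below was not tested. In such bulk samples fewer cells of a type and less RNA per cell cannot be told apart.

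The chosen tiles overlapped 506 annotated genes, of which 400 were protein-coding, 409 were in the TPM table and 184 (45.0%) passed the filter on low values, which 47.5% of the whole table did. None of the 184 reached an adjusted p under 0.05, and their smallest adjusted p was 0.204. At an unadjusted p under 0.05 there were 25 (13.6%), against 16.7% of all genes tested. Of these 10 were higher in SHMT2 (5.43%, where 11.3% of all genes tested were) and 15 lower (8.15%, where 5.4% were). The SHMT2 libraries lay all above the vector libraries in 15 of the 184 genes (8.15%, where 16.9% of all genes tested did) and all below in 20 (10.9%, where 8.26% did). The median log2 difference was -0.05 over the 184 and 0.02 over all genes tested.

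Of genes with a start site within 1 kb of a chosen tile, 135 were found, 100 were in the table and 38 were tested. Of these 24 had a lower (63.2%, where 46.8% of all genes tested did) and 14 a higher mean log2 level in SHMT2. The SHMT2 libraries lay wholly below the vector libraries in 4 (10.5%, where 8.26% of all genes tested did) and wholly above in 1 (2.63%, where 16.9% did). Another 23 of the 100 were listed at 0 in all 6 libraries, as were 27.8% of the whole table. Across these 38 genes the methylation difference of the tile and the log2 difference of RNA had a Pearson correlation of 0.10 (Spearman 0.04), and across the 184 genes one of -0.003 (Spearman 0.01). These are correlations across genes, which are not independent replicates.

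Of the 10 higher genes with the smallest p, 9 are described here, with limma adjusted p from 0.204 to 0.273. First was Cotl1, an actin-binding protein, at 541, 533 and 533 TPM in SHMT2, against 358, 344 and 268 TPM in vector (log2 difference 0.74, SE 0.12). Cotl1 had 2 touching tiles, of which the second stood at 24.2, 34.4 and 18.5% in SHMT2, against 15.5, 12.2 and 13.2% in vector, so methylation and RNA were both higher in SHMT2. Rhof, a small GTPase of filopodia, stood at 35.3, 30.5 and 35.9 TPM in SHMT2, against 20.9, 25.5 and 22.4 TPM in vector (log2 difference 0.55). Dcun1d5, a cofactor of cullin neddylation, stood at 57.4, 52.3 and 55.5 TPM in SHMT2, against 41.2, 36.3 and 46.1 TPM in vector (log2 difference 0.42). Its tile, shared with Dync2h1 and holding a start site, stood at 21.5, 7.91 and 15.6% in SHMT2, against 0, 0.463 and 0.568% in vector. The 0 in vector replicate 1 stands on 200 calls, which allow a level of up to 1.5%. The other higher genes were Anapc11, a subunit of the anaphase-promoting complex, Map1a, Dapp1, Bop1, Polg and Prss36, with log2 differences from 0.23 to 0.83, and in each of the 9 every SHMT2 library lay above every vector library.

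The 10 lower genes had limma adjusted p from 0.204 to 0.257. Sbsn, a secreted protein of epithelia, stood at 6.64, 8.35 and 8.68 TPM in SHMT2, against 12.3, 18.5 and 18.4 TPM in vector (log2 difference -0.95, SE 0.19). Prr7, a proline-rich membrane adaptor, stood at 5.997, 3.93 and 4.63 TPM in SHMT2, against 10.5, 13.2 and 8.16 TPM in vector (log2 difference -0.98, SE 0.21). Its tile, near its start, stood at 25.6, 20.7 and 31.9% in SHMT2, against 19.4, 12.5 and 5.91% in vector. Tbx6, a T-box transcription factor, stood at 39.3, 44.3 and 37.3 TPM in SHMT2, against 51.2, 56.5 and 57.7 TPM in vector (log2 difference -0.44, SE 0.10), and its tile at the start was at 71.3, 71.3 and 65.6% in SHMT2, against 54.1, 55.2 and 63.8% in vector. The Tbx6 promoter window in that tile, with 2 measured cytosines, was less methylated and its groups overlapped. It stood at 25.3, 29.4 and 29.4% in SHMT2, against 22.3, 22.3 and 28.4% in vector. The others were Col11a2, Gse1, Prdm1, Cacna1h, Ttbk1, Cep85 and Wdfy1, with log2 differences from -0.29 to -0.63. In each of the 10 every SHMT2 library lay below every vector library. Cep85, a centrosomal protein listed in the table as Ccdc21, had the largest tile difference of these 19 genes, 29.4 points, at 89.5, 48.8 and 61.0% in SHMT2, against 34.0, 37.5 and 39.8% in vector.

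**Figure D5:**
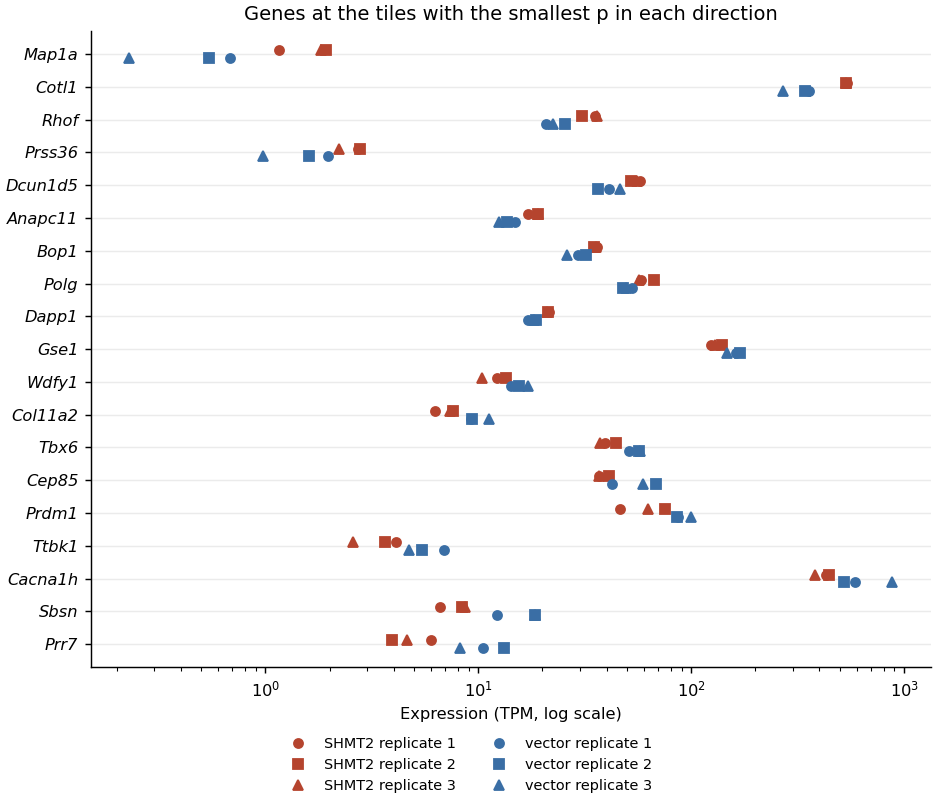
Expression in TPM (horizontal axis, log scale) of 9 higher and 10 lower genes, those with the smallest p among genes at the chosen tiles apart from 1 not reported here, in each RNA-seq library, SHMT2 in red and vector in blue, with 1 marker shape per replicate number. In each gene the 3 SHMT2 values lie on 1 side of the 3 vector values, and none of the 19 passed the adjusted threshold, with limma adjusted p from 0.204 to 0.273.

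Without vector replicate 1, which left the 2 vector libraries rich in erythroid transcripts, limma called 845 genes (7.60%), 13 of them among the 184 at chosen tiles (7.07%), a share near that of all genes. Cotl1 (adjusted p = 0.0322), Sbsn (0.0259) and Cep85 (0.0322) passed there, and Mef2b and Otulinl were among the other 10. Without vector replicates 2 and 3 limma called 6 genes, none at a chosen tile, with 45 genes at chosen tiles (24.5%) at an unadjusted p under 0.05, where 18.3% of all genes tested were.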

How the data were processed

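The tiles and gene lists were chosen with earlier results of these data known. Per the file headers, the deposited ERRBS tables list each cytosine with its coverage (a count of calls) and with the percent read as C and as T. The submitters' processing notes name Bismark, Bowtie2 and mm10 for them. Calls were recovered from coverage and percent and summed over the cytosines of a tile. Mean coverage per library was 63.0 to 71.6 calls, over 1330340 to 1424115 cytosines. The authors' deposited peak lists, made with MACS2 on BWA alignments per the submitters' processing notes, were called per library, and a tile overlapped a peak by 1 base or more. Their −log10 q-values, as deposited by the authors, served only as an alternative filter. The authors' deposited TPM, from STAR alignments per the submitters' processing notes, keep no depth, so the RNA-seq depth is unknown. Which tool made them, and whether strand was used, is not given in the sources. Input libraries were not used here.

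Genes averaging 1 TPM or more were tested on log2(TPM + 1) with limma 3.58.1 in R 4.3.3 (empirical Bayes with trend, two-sided, Benjamini-Hochberg adjusted over all genes, no covariate), after a test on simulated data. Tables were made with Python 3.11.15 and pandas 2.3.3. RefSeq spans and start sites were those of GRCm38.p6, and 173 of 173 measured cytosines checked against promoter sequence matched. Of 23382 symbols, 22066 matched RefSeq, 2065 of them by an older name. The text names the 10 tiles with the widest gap, the 3 longest runs, up to 10 H3K4me3 tiles within 1 kb of an end of an expressed coding gene, the 5 tiles with most cytosines, 3 tiles on either side of the threshold, the 10 genes with the smallest p in each direction and genes of the lists. Of these, 1 tile next to the threshold and 1 higher gene are not reported here. The printed promoters, and the tiles with peaks in SHMT2 libraries alone, were chosen after their values were seen. Groups and replicate numbers follow the sample titles, although the transfection labels of SHMT2 replicates 2 and 3 of the ERRBS set read SHMT3 and SHMT4. Cytosines of the Y chromosome were few in ERRBS SHMT2 replicate 2 and vector replicate 1 (186 and 185, against 1095 to 1158 in the others). In RNA-seq, Y-linked transcripts were near 0 in vector replicate 1 but not in SHMT2 replicate 2, so equal numbers cannot be taken to mark the same animal across assays.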

Additional observations from a re-analysis of the deposited data

How the results depend on the processing

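The rule found 389 higher tiles with 5 or more cytosines per tile and 301 with a difference of 15 points. Leaving out 1 ERRBS library gave 931 to 3066 higher tiles: 3066 without SHMT2 replicate 3, 2101 without vector replicate 1, 1038 without SHMT2 replicate 2 and 996 without vector replicate 2. A coverage of 20, tiles of 500 bp, means of per-cytosine levels or calls read as C or T as the denominator kept the count within 1.5 times. The share of tiles at H3K4me3 was 11.2% when a peak in every library was asked for. The share at H3K4me1 was 17.6% on the same demand and 19.97% with peaks of −log10 q of at least 5. The share in a gene span was 67.4% under the rule without SHMT2 replicate 2, an alternative chosen after seeing the data, and 82.2% with spans extended by 5 kb. limma called 0 to 845 genes when 1 RNA-seq library was left out, and genes of the tiles at an unadjusted p under 0.05 numbered 12 to 60: 12 without SHMT2 replicate 3, 15 without SHMT2 replicate 2 and 60 without vector replicate 1. Without vector replicates 2 and 3, also chosen after seeing the data, those counts were 6 and 45, and the lone vector library was assumed to vary like the SHMT2 libraries. The cause of these changes was not tested. Same-numbered RNA-seq libraries did not deviate together (correlations of -0.42, -0.33 and -0.06). Deviations within groups of 3 libraries cannot exclude that the numbers pair them. With the replicate block limma called 0 genes, and 17 genes of the tiles were at an unadjusted p under 0.05. These counts at an unadjusted p under 0.05 stand without the share of all genes tested at the same setting. They therefore show nothing particular to the genes of the tiles. In the main fit that share was 13.6% of the genes of the tiles and 16.7% of all genes tested. Without vector replicate 1 limma called 7.07% of the genes of the tiles and 7.60% of all genes tested. All 243 values of named tiles kept their direction, and of 180 values of the 20 genes with the smallest p 3 newly passed the threshold and none changed direction. Those 3 were among the 13 genes at chosen tiles called without vector replicate 1. In the named tiles and these 20 genes the groups did not overlap, so leaving out 1 library could not reverse a direction. For the genes, neither could another constant added to TPM or the replicate block. The kept directions were thus mostly fixed in advance and are no support. In 122 chosen tiles (19.03%) a library had under 100 calls, and the RNA-seq depth is unknown.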
